A study of Schizosaccharomyces pombe with 6 samples.

Results

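The tricarboxylic acid (TCA) cycle genes were followed in the RNA of fission yeast cells on day 6 of chronological ageing, when the cultures were in stationary phase. The genes were chosen by name, as the rows of the count table whose systematic identifier carries the standard name cit1, aco1, idh1, idh2, kgd1, kgd2, lsc1, lsc2, fum1 or mdh1. This gave 10 rows of 6952. One name stands for another gene. In the RefSeq annotation lsc1 (SPBC530.13) is a cyclin that associates with the kinase Lsk1, whereas the alpha subunit of succinate-CoA ligase is SPAC16E8.17c, a row with no standard name. The rows chosen by name therefore held 9 TCA cycle enzymes and 1 cyclin, and SPAC16E8.17c was added, after the files were seen, to complete the enzyme. Counts of members below refer to the 10 rows by name unless 10 enzyme rows (SPAC16E8.17c in place of lsc1) are stated.

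The series held 6 strand-specific libraries in 2 groups of 3. The aal1-pOE cells (aal1OE in the sample labels) held a plasmid that drives the long non-coding RNA aal1 by P41nmt1, a promoter that thiamine represses, and the evc cells held the empty vector. Both strains were 972h-/leu1-32 and were grown in minimal medium with glutamate (EMMG), so glutamate, which enters the cycle as oxoglutarate, was supplied to both. The labels call the replicates biological, and the study grew each genotype in triplicate, from transformants whose number the labels do not give. The comparison asked which transcripts differ in stationary-phase cells when aal1 is in excess.

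In the cycle, citrate synthase joins acetyl-CoA from pyruvate to oxaloacetate, and the citrate is then oxidised in the mitochondrial matrix back to oxaloacetate. The steps release carbon dioxide and load electron carriers for the respiratory chain, and they also give carbon skeletons away, above all oxoglutarate for glutamate and oxaloacetate for aspartate. Fission yeast mutants in idh1 or idh2 need glutamate for growth, as their older names glu3 and glu2 recall. Aconitase and succinate dehydrogenase carry iron-sulfur clusters, and part of the respiratory genes of fission yeast is read under control of the CCAAT-binding complex, in which Php4 acts as a repressor when iron is scarce.

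The stretches upstream of these genes were read from the RefSeq assembly ASM294v3, whose annotation also supplied all coordinates. CCAAT on either strand was found in the 250 bases before the annotated start of 4 of the 10 enzyme rows, namely aco1, idh1, kgd1 and SPAC16E8.17c, against 35.3% of 5110 protein-coding genes. The 250 bases before kgd1 (chrII:1878814-1879063, plus strand) held 3 matches and are shown because kgd1 had the lowest fold change of the members. Shorter stretches are shown for the other genes with a match. Capitals mark CCAAT or its complement ATTGG, and all sequences run 5′ to 3′ on the strand of the gene.
kgd1: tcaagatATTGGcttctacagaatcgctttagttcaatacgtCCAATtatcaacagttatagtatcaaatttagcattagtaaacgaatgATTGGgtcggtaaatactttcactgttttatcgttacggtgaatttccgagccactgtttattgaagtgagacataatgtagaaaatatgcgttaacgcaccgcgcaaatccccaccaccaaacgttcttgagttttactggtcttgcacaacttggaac
aco1 (chrI:3051523-3051557, minus strand): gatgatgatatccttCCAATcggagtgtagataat
idh1, first match (chrI:3966636-3966670, plus strand): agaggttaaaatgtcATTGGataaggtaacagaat
idh1, next match (chrI:3966686-3966720, plus strand): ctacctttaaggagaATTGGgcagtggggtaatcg
SPAC16E8.17c (chrI:3533536-3533567, minus strand): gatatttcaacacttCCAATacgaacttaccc

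CCCCTC, the core of the element bound by the glucose-starvation factor Rst2, was found on either strand before 2 of the 10 enzyme rows, cit1 and idh2 (1.7% of all promoters). TGACGT, the core of the element bound by the stress factor Atf1, was found before 1, cit1 (5.52% of all promoters). The cit1 stretch carries TGACGT, in capitals, followed by CCCCTC without overlap, and is shown because no other member held both. A match describes these letters only.
cit1 (chrI:2327725-2327760, plus strand): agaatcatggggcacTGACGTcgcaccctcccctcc

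Library totals ranged from 5839863 to 13164975 counts, with aal1-pOE replicate 2 the deepest. Counts of aal1 itself were 54, 141 and 58 in the aal1-pOE libraries against 4, 2 and 4 in evc, higher in the strain labelled as overexpressing it. Values of a strain are always given in the order of replicates 1, 2 and 3. Levels below are CPM (the count relative to the library's total) after TMM scaling, which corrects those totals for composition. Replicate 2 of aal1-pOE stood apart, with a TMM factor of 1.80 beside 1.04 and 1.07 in the other aal1-pOE libraries and 0.76 to 0.85 in evc, and several results below are also given without it. Over all 5823 genes tested, scaling moved the median log2 fold change by 0.72, from 0.80 with library totals to 0.08 with TMM, so every fold change below carries that choice.

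All 10 members passed the filter on low counts. None was called in either direction in edgeR's quasi-likelihood test at an adjusted p of at most 0.05, where 1.36% of all genes were called higher and 4.64% lower in aal1-pOE. Of the members, 5 lay above 0 and 5 below, with a median log2 fold change of 0.02 beside 0.08 over all genes tested. The members nevertheless spread over a range, from kgd1 at the low end to lsc2 at the high end. In bulk RNA of aged cultures, a smaller part of the cells holding a transcript and less of that transcript per cell cannot be told apart. At an unadjusted p under 0.05 there was 1 member, lsc2, and the share of all genes at that cut was not counted. DESeq2 called 1 member, kgd1, lower (8.78% of all genes), and the edgeR likelihood ratio test and limma-voom called 0. The groups did not overlap in TMM-scaled CPM for 4 members that were higher in aal1-pOE (idh1, lsc1, lsc2 and mdh1) and for 3 that were lower (cit1, aco1 and kgd1), beside 18.4% and 19.1% of all genes.

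**Figure D1:**
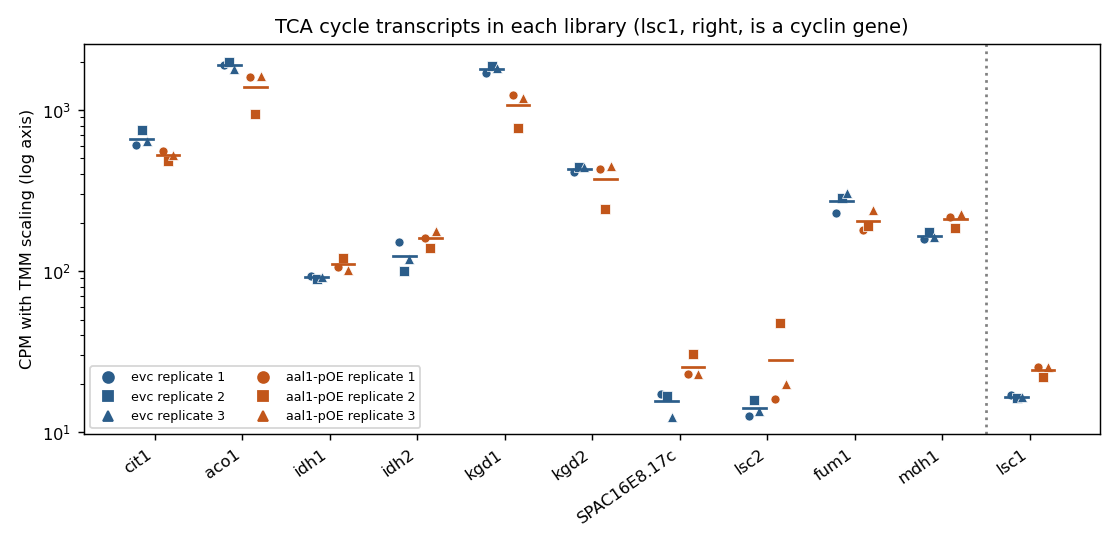
TMM-scaled CPM (log axis) of the 10 enzyme rows in the order of the cycle, with lsc1 at the right, in 3 evc libraries (blue) and 3 aal1-pOE libraries (orange), where marker shapes give the replicate and bars the group mean. The kgd1 points of aal1-pOE sit between 774 and 1246, below the evc points. The aal1-pOE replicate 2 point (square) is the lowest for cit1, aco1, kgd1 and kgd2 and the highest for idh1, SPAC16E8.17c and lsc2.

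Entry into the cycle was described by cit1 and aco1. Citrate synthase is encoded by cit1 (SPAC6C3.04, chrI:2327828-2330289, 1 intron), which stood at 559.9, 484 and 527 CPM in aal1-pOE against 603, 747 and 641 CPM in evc. Every aal1-pOE value lay below every evc value, by a margin smaller than the range within evc. The log2 fold change of cit1 was -0.34 ± 0.26 (SE), with an adjusted p = 0.403. Aconitase, which isomerises citrate to isocitrate, is encoded by aco1 (SPAC24C9.06c, chrI:3048060-3051463, 1 intron). It was the most abundant member per length (given further on), at 1612, 938 and 1618 CPM in aal1-pOE against 1899, 1994 and 1804 CPM in evc. Replicate 2 stood well below the other aal1-pOE libraries, and the log2 fold change of aco1 was -0.45 ± 0.36 (SE), with an adjusted p = 0.415 (-0.22 without aal1-pOE replicate 2). With library totals both genes changed sign, to 0.36 for cit1 and 0.17 for aco1.

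The NAD-dependent isocitrate dehydrogenase has an idh1 and an idh2 subunit and makes oxoglutarate. The level of idh1 (SPAC11G7.03, chrI:3966766-3968132, no intron) was 107, 121 and 102 CPM in aal1-pOE against 93.8, 89.5 and 92.0 CPM in evc. These groups were apart, and the evc libraries lay close together, with a coefficient of variation of 2.34%. Its partner idh2 (SPBC902.05c, chrII:491874-493684, 4 introns) stood at 162, 139.7 and 177 CPM in aal1-pOE against 152, 99.4 and 118 CPM in evc. Here the groups overlapped through evc replicate 1, which lay above aal1-pOE replicate 2. The log2 fold change was 0.26 ± 0.19 (SE) for idh1 (adjusted p = 0.379) and 0.37 ± 0.23 (SE) for idh2 (adjusted p = 0.317). With library totals they became 1.001 and 1.04, and idh2 was then called higher (adjusted p = 0.0474). The idh2 gene overlaps the protein-coding gene rmn1 on the other strand over 348 bases.

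Oxoglutarate dehydrogenase gave the widest contrast of the 3 enzymes with a pair of subunits here. The level of kgd1 (SPBC3H7.03c, chrII:1879064-1884199, no intron), which encodes the oxoglutarate-decarboxylating E1 subunit, was 1246, 774 and 1193 CPM in aal1-pOE against 1698, 1871 and 1821 CPM in evc. All aal1-pOE values lay below all evc values. The level of kgd2 (SPBC776.15c, chrII:3206576-3208733, 2 introns), the succinyltransferase E2 subunit, was 430.4, 242 and 447 CPM in aal1-pOE against 412, 443 and 441 CPM in evc. Leaving aside the low value of replicate 2, these levels covered the same range. The log2 fold change was -0.75 ± 0.34 (SE) for kgd1 (adjusted p = 0.189) and -0.21 ± 0.30 (SE) for kgd2 (adjusted p = 0.647). Without aal1-pOE replicate 2 kgd1 was at -0.54 and was called lower (adjusted p = 0.0482, where 9.09% of all genes were called lower), while kgd2 turned to 0.04. With library totals kgd1 was at -0.11 and kgd2 at 0.40, a change of sign for kgd2. The adjusted p of kgd1 ranged from 0.000835 to 0.644 over its 17 alternatives. On the other strand kgd2 overlaps plh1 over 1660 bases, which had 282 to 1105 raw counts in aal1-pOE and 170 to 206 in evc. These counts are not scaled for the unequal library totals, so they do not show a difference between the strains.

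Succinate-CoA ligase, which turns succinyl-CoA into succinate and makes a nucleoside triphosphate, was the least abundant enzyme per length. Its alpha subunit row SPAC16E8.17c stood at 22.8, 30.4 and 23.0 CPM in aal1-pOE against 17.2, 16.8 and 12.5 CPM in evc, with no overlap, at a log2 ratio between the strains of 0.71 ± 0.29 (SE) and an adjusted p = 0.155. The beta subunit gene lsc2 (SPCC1620.08, chrIII:2159429-2161295, no intron) stood at 16.1, 47.8 and 19.9 CPM in aal1-pOE against 12.7, 15.9 and 13.5 CPM in evc. Replicate 2 alone carried most of the distance, and the lowest aal1-pOE value was only just above the highest evc value. The log2 fold change of lsc2 was 1.002 ± 0.43 (SE) (adjusted p = 0.167), the highest of the members, and was 0.37 without aal1-pOE replicate 2. The cyclin gene lsc1 (chrII:824345-825870, 4 introns), no part of this enzyme, stood at 25.5, 21.9 and 25.5 CPM in aal1-pOE against 17.04, 16.4 and 16.5 CPM in evc, at a log2 ratio of 0.54 ± 0.26 (SE) and an adjusted p = 0.213. It overlaps the protein-coding gene dsk1 on the other strand over 1066 bases.

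The last steps run from succinate through fumarate and malate to oxaloacetate. Fumarase hydrates fumarate to malate and is encoded by fum1 (SPCC18.18c, chrIII:1988324-1990734, 1 intron), whose level was 180.5, 191 and 240.2 CPM in aal1-pOE against 228, 283 and 306 CPM in evc. These groups overlapped, and the log2 fold change was -0.42 ± 0.24 (SE) with an adjusted p = 0.279, or 0.28 with library totals, a change of sign. Malate dehydrogenase closes the cycle and is encoded by mdh1 (SPCC306.08c, chrIII:421646-423421, 1 intron), whose level was 216, 185 and 227 CPM in aal1-pOE against 159, 175 and 162 CPM in evc. Every aal1-pOE value of mdh1 lay above every evc value. Its log2 fold change was 0.34 ± 0.21 (SE) with an adjusted p = 0.308. With library totals it was 1.02 and mdh1 was called higher (adjusted p = 0.0363), one of 2 members called in that setting beside 8.88% of all genes. Overlaps on the other strand are not limited to the members named with one above. The protein-coding genes sul1 and tfg1 overlap kgd1 over 77 bases and lsc2 over 101 bases. Non-coding genes without a row in the counts overlap cit1, aco1, idh2, kgd1, lsc2, fum1 and mdh1, over up to 1944 bases in fum1. Reads were counted by strand, and the part that genes on the other strand have in these values was not tested.

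Calls on single members moved with the libraries in the fit. With aal1-pOE replicate 2 and evc replicate 1 both left out, which leaves 2 libraries on each side, idh2 (0.64), lsc1 (0.63) and mdh1 (0.40) were called higher and cit1 (-0.35), kgd1 (-0.60) and fum1 (-0.49) lower. In that setting 19.4% of all genes were called higher and 20.2% lower, beside 1.36% and 4.64% with all libraries. The libraries left out had the highest TMM factor of their strain (1.80 and 0.85). The calls therefore rest on that choice of libraries and add no separate support. In all, 4 of the 10 rows changed sign with library totals (cit1, aco1, kgd2 and fum1), and relative to the median of all genes 5 members lay below it under each scaling.

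**Figure D2:**
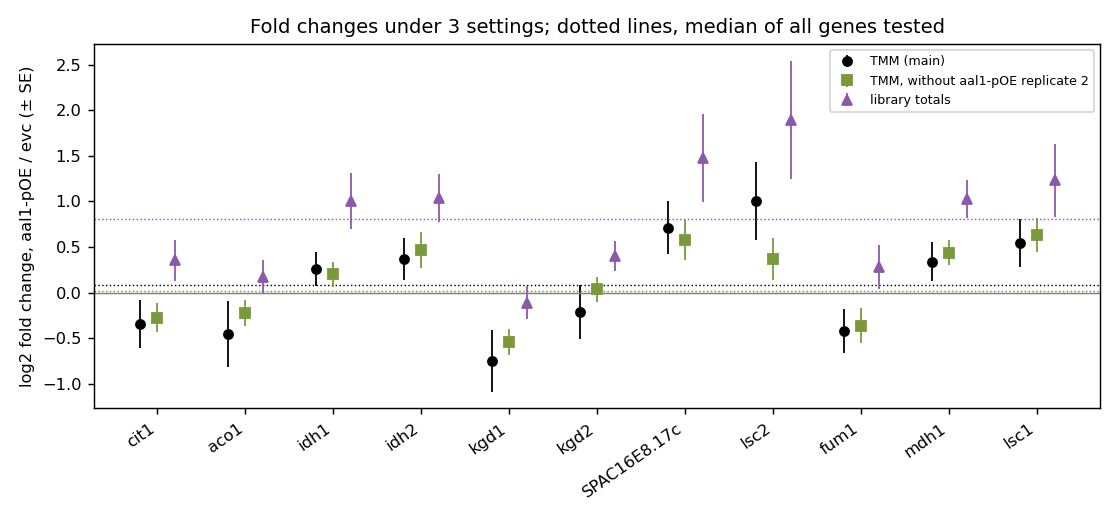
Log2 fold change of aal1-pOE over evc with its SE for each enzyme row and lsc1, from edgeR with TMM (black), with TMM but without aal1-pOE replicate 2 (green) and with library totals (purple), where dotted lines give the median of all genes tested. The order of the genes, with kgd1 lowest at -0.75 and lsc2 highest at 1.002 under TMM, moves to higher values with library totals, and lsc2 drops to 0.37 without aal1-pOE replicate 2.

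With library totals alone, the 10 rows by name took 0.489, 0.564 and 0.474% of all counts in aal1-pOE against 0.448, 0.438 and 0.417% in evc. The means of this share were 0.509% ± 0.0484 for aal1-pOE and 0.434% ± 0.0156 for evc (SD, n = 3). In CPM from library totals 7 members were higher in aal1-pOE without overlap (47.2% of all genes) and 1, kgd1, was lower (6.29%). A share of all counts follows every other transcript in the library, and 3 libraries against 3 cannot give an exact permutation p below 0.10.

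Ratios between members within a library do not depend on any scaling factor. Part of them did not overlap between the strains, which also held for 42.2% of ratios among all genes averaging 10 CPM or more and counted in every library. Of the counts of the 10 enzyme rows together, kgd1 made up 27.4, 24.6 and 26.1% in aal1-pOE against 32.2, 32.6 and 33.7% in evc. Its share was thus lower in each aal1-pOE library. The share of mdh1 was 4.75, 5.86 and 4.96% in aal1-pOE against 3.01, 3.04 and 2.99% in evc, so that the evc libraries lay within a narrow band and the aal1-pOE libraries all above it. The shares of idh1, idh2, lsc2 and SPAC16E8.17c were also higher in aal1-pOE without overlap, at 2.81% ± 0.901 against 1.68% ± 0.11 for idh1 and 3.95% ± 0.446 against 2.27% ± 0.58 for idh2 (SD, n = 3). Counts relative to this enzyme total were higher without overlap for 37.4% of all genes tested and lower for 9.31%, beside 5 and 1 of the 10 enzyme rows. The shares of the 10 enzyme rows add up to the whole, so a lower kgd1 share raises the others, and they are not separate observations. The shares of cit1, aco1, kgd2 and fum1 overlapped, and aco1 stayed the largest in aal1-pOE at 33.5% ± 3.25 (evc 34.7% ± 1.33).

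For the subunits of an enzyme, the count ratio of kgd1 over kgd2 was 2.9, 3.2 and 2.67 in aal1-pOE against 4.12, 4.23 and 4.13 in evc. The evc libraries agreed closely, the aal1-pOE libraries were all lower, and the means were 2.92 ± 0.264 and 4.16 ± 0.06 (SD, n = 3), a log2 difference of -0.51. A lack of overlap was also found for 42.2% of the ratios among all genes averaging 10 CPM or more and counted in every library. The ratio of idh1 over idh2 was 0.66, 0.867 and 0.575 in aal1-pOE against 0.616, 0.901 and 0.777 in evc, and these values overlapped. So did the ratio of lsc2 over SPAC16E8.17c, at 0.704, 1.57 and 0.863 in aal1-pOE against 0.735, 0.947 and 1.08 in evc. The log2 differences of these latter ratios were -0.13 and 0.11. Their SDs on the log2 scale within aal1-pOE were 0.30 and 0.60, so neither difference exceeded the spread.

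Ratios to mdh1 were chosen after their values were seen. The ratio of kgd1 over mdh1 was 5.77, 4.19 and 5.26 in aal1-pOE against 10.7, 10.7 and 11.3 in evc, a log2 difference of -1.11. The ratio of cit1 over mdh1 was 2.59, 2.62 and 2.32 in aal1-pOE against 3.8, 4.28 and 3.96 in evc, a log2 difference of -0.68. In each, all 3 aal1-pOE libraries lay below all 3 evc libraries, replicate 2 included. Over the 45 ratios that the 10 enzyme rows allow, 30 (66.7%) did not overlap between the strains, beside 42.2% of the ratios among 4593 genes averaging 10 CPM or more and counted in every library. Each row enters 9 ratios, so they are not separate observations. With kgd1, 8 of 9 ratios were apart, and with aco1 or kgd2 7 of 9.

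**Figure D3:**
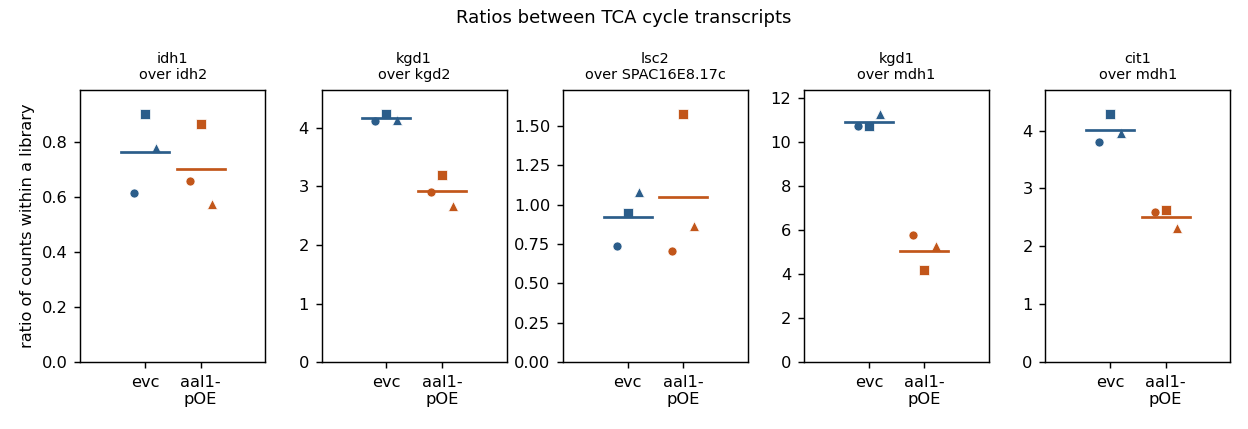
Ratio of counts within each library (linear axes from 0) for the 3 subunit pairs, idh1 over idh2, kgd1 over kgd2 and lsc2 over SPAC16E8.17c, and for kgd1 and cit1 over mdh1, in evc (blue) and aal1-pOE (orange), with bars at the group means and marker shapes for replicates 1 (circle), 2 (square) and 3 (triangle). The kgd1 over kgd2 ratio averaged 4.16 in evc and 2.92 in aal1-pOE with no overlap, whereas the idh1 over idh2 and lsc2 over SPAC16E8.17c ratios overlapped.

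Levels of different genes were compared per length, as TMM-scaled CPM per kilobase of annotated exon. In evc the order from high to low was aco1 (684 ± 34.3, SD, n = 3), cit1 (395 ± 44.4), kgd1 (349.8 ± 17.3), kgd2 (239 ± 9.39), fum1, mdh1, idh2, idh1 (67.1 ± 1.57), lsc1, SPAC16E8.17c and lsc2 (7.51 ± 0.913). The ranges of neighbours overlapped for cit1 and kgd1, for fum1 and mdh1, and for idh2 and idh1. In aal1-pOE kgd1 (209 ± 50.3) and kgd2 (207 ± 62.9) stood level, cit1 was apart from kgd1, and fum1 (108 ± 16.99) came after mdh1 (155 ± 16.2) and idh2 (109.5 ± 12.95). Neighbours with overlapping ranges there were kgd1 and kgd2, kgd2 and mdh1, idh2 and fum1, and lsc1, SPAC16E8.17c and lsc2 in turn. The annotated kgd1 transcript has 5136 exonic bases for 3030 coding bases, so its level per length rests on the extent of that annotation.

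Around the cycle, 2 of 42 genes in 6 lists were called, and both were lower, a share of 4.76% that is close to the 4.64% of all genes. Of 4 succinate dehydrogenase genes, the enzyme that links the cycle to the respiratory chain, 1 fell, sdh3, which encodes the cytochrome b anchor subunit. It stood at 154, 96.5 and 130.4 CPM in aal1-pOE against 236, 325 and 306 CPM in evc, with a log2 fold change of -1.19 ± 0.26 (SE) and an adjusted p = 0.0295. The highest of these genes was sdh1, the flavoprotein subunit, at -0.21 ± 0.24 (SE) (adjusted p = 0.581), and the list median was -0.44. The call of sdh3 ended with library totals (-0.53, adjusted p = 0.0776) and on leaving out replicate 1 or 3 of aal1-pOE or replicate 2 or 3 of evc (adjusted p of 0.0639, 0.0528, 0.171 and 0.158, edgeR). Over all genes, 154 were called lower with library totals and 141, 265, 81 and 86 without those libraries, beside 270 in the main fit.

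Of 6 related enzymes and shunts, 1 fell, mae2, the malic enzyme that drains malate to pyruvate. Transcripts of mae2 were at 611, 457 and 535 CPM in aal1-pOE against 1397, 2468 and 2333 CPM in evc, far apart in all libraries, with a log2 fold change of -1.95 ± 0.36 (SE) and an adjusted p = 0.0146. With library totals it was -1.26 and still called, where 2.64% of all genes were called lower. The call ended on leaving out replicate 1 of aal1-pOE or replicate 2 or 3 of evc (adjusted p of 0.0635, 0.101 and 0.0988, edgeR). Calls also fell over all genes in these settings, to 141, 81 and 86 genes called lower, beside 270 with all libraries. The highest of the list was osm1, annotated as fumarate reductase, at 62.4, 59.8 and 71.4 CPM in aal1-pOE against 38.5, 39.3 and 33.2 CPM in evc. The log2 ratio of osm1 was 0.80 ± 0.20 (SE), and its adjusted p = 0.0514 was just above the threshold. It was called higher in 6 of 17 alternatives. The list, which also holds the malate permease gene mae1, the gene listed as kgd4 and annotated as a mitochondrial ribosomal protein, the isocitrate dehydrogenase gene idp1 and the pyruvate carboxylase gene pyr1, had a median of -0.52.

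No gene was called among 6 of the pyruvate dehydrogenase complex, which feeds acetyl-CoA into the cycle (median -0.22), in edgeR with TMM. The lowest was dld1, the dihydrolipoamide dehydrogenase shared with the oxoglutarate dehydrogenase complex, at -0.81 ± 0.30 (SE) (adjusted p = 0.122), and the highest pkp1, a kinase of the complex, at 0.02 ± 0.25 (SE) (adjusted p = 0.967). Of 8 genes through which glutamate, glutamine, proline, GABA and aspartate carbon meets the cycle 0 were called (median 0.25). They ran from glt1, glutamate synthase, at -0.67 ± 0.32 (SE) (adjusted p = 0.209) to uga1, GABA transaminase, at 0.85 ± 0.34 (SE) (adjusted p = 0.153). Of 13 iron-sulfur assembly genes 0 were called (median -0.28), from the Hsp70 gene ssc1 at -1.71 ± 0.49 (SE) (adjusted p = 0.0664) to arh1, a ferredoxin reductase, at 1.36 ± 0.54 (SE) (adjusted p = 0.148). Of 5 regulators of CCAAT and iron-responsive genes 0 were called (median 0.18), with php3 lowest at -0.07 ± 0.26 (SE) (adjusted p = 0.866) and the iron sensor fep1 highest at 0.66 ± 0.22 (SE) (adjusted p = 0.105).

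Calls in these lists depended on the libraries. Without aal1-pOE replicate 2, dld1 (-1.06, adjusted p = 0.0338), ssc1 (-1.38, adjusted p = 0.0106) and pyr1 (-1.07, adjusted p = 0.0402) were called lower and fep1 (0.76, adjusted p = 0.0302) and osm1 (0.87, adjusted p = 0.0157) higher, beside 9.09% and 4.42% of all genes. In that setting arh1 was at 0.71 (adjusted p = 0.249), and php3 (0.08) and pkp1 (-0.13) changed sign without a call. With evc replicate 1 left out as well, 7 of the 42 genes (16.7%) were called higher and 12 (28.6%) lower, among them 4 of the 5 regulators higher and dld1 and ssc1 lower, beside 19.4% and 20.2% of all genes. In edgeR with all libraries, ssc1 was also called lower with a filter of 10 CPM (adjusted p = 0.0407, 6.77% of all genes).

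At an unadjusted p under 0.05, the last 4 lists held 1 pyruvate dehydrogenase gene (lower), 1 glutamate gene (higher), 5 iron-sulfur genes (2 higher, 3 lower) and 1 regulator gene (higher). The share of all genes under that unadjusted cut was not counted, so these numbers cannot be set against it. DESeq2 and the edgeR likelihood ratio test each called 1 iron-sulfur gene, ssc1, lower (8.78% and 8.11% of all genes), and otherwise called 0 in these lists, and limma-voom called 0. With library totals, gdh2 (0.86, NAD-dependent glutamate dehydrogenase), put1 (0.95, proline oxidase), php2 (1.11) and php5 (0.84) of the CCAAT-binding complex, and fep1 (1.33) were called higher and ssc1 (-1.13) lower. In that setting 8.88% of all genes were called higher and 2.64% lower. With that scaling the medians of the succinate dehydrogenase, pyruvate dehydrogenase, related enzyme and iron-sulfur lists changed sign to positive, at 0.26, 0.46, 0.24 and 0.37, each below the median of all genes at 0.80.

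**Figure D4:**
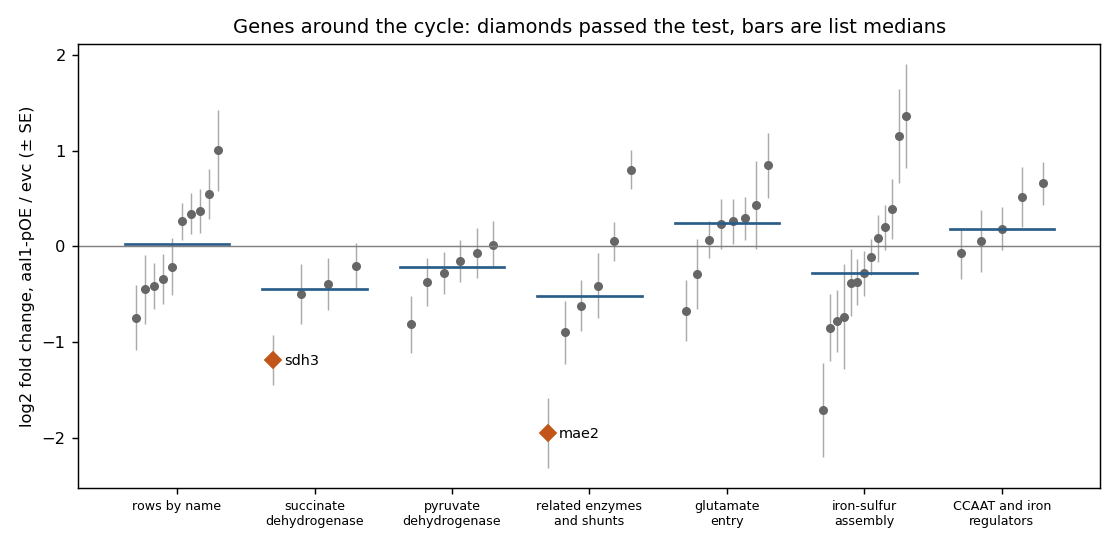
Log2 fold change of aal1-pOE over evc with its SE (edgeR, TMM) for the 10 rows chosen by name and for 6 groups of genes around the cycle, each sorted from low to high, with horizontal bars at the group medians. The genes that passed the test (orange diamonds) are sdh3 at -1.19 and mae2 at -1.95, and no gene passed in the other groups.

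As a mean over the 10 rows, lsc1 included, the members hardly moved under TMM scaling, with 5 fold changes above 0 and 5 below. With library totals the members' median log2 fold change was 0.70, beside 0.80 over all genes. The members' mean log2 TMM-scaled CPM lay between 7.55 and 7.76 in the 6 libraries, lowest in aal1-pOE replicate 2 and highest in aal1-pOE replicate 3. The 5 genes of 4583 with the most similar course over these 6 libraries were hal3 (Pearson r = 0.99), bbc1 (0.99), lam3 (0.99), SPNCRNA.1525 (0.98) and grh1 (0.96). All points share the same libraries and scaling factors, and the course that is matched spans little more than the differences between replicates.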

How the data were processed

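RNA was depleted of ribosomal RNA and made into strand-specific libraries. Per the labels and the study's methods, the authors mapped reads with STAR 2.6.1a after clipping molecular identifiers and counted them per gene with HTSeq 0.12.3 on the sense strand over the whole gene span, introns included. A step collapsing reads by identifier and the release of the genome are not given in the sources used here. The deposited values are raw counts for 6952 genes, all of whose 6 columns were used. The 5823 genes that exceeded 1 CPM in 3 or more libraries entered a fit by edgeR 4.0.16 (TMM, quasi-likelihood test, Benjamini-Hochberg adjustment over all genes tested, R 4.3.3) with strain as the only factor, and an adjusted p of 0.05 or less made a call. Dividing a log2 fold change, taken without sign, by the square root of its F gave the SE. The study's own fit used edgeR, and the likelihood ratio form is an alternative, as are DESeq2 1.42.0, limma-voom (limma 3.58.1), other scalings and filters, a replicate block and leaving out libraries. P-values set a difference between the strains against the spread between 3 cultures a strain, and the spread of a gene was estimated partly from all genes. The script was tested on simulated data.

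Names, coordinates and sequences come from RefSeq ASM294v3, in which 6805 of the 6952 identifiers were found. Motifs were searched on both strands in the 250 bases before each start. The members, the lists and the named genes were chosen with earlier results of these data known. By rule, every member was named, with any called gene and the lowest and highest gene of each list, and the 5 genes nearest to the members' mean course by Pearson r among those averaging 10 CPM or more. A further related enzyme, outside the lists as counted, is not reported here.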

Additional observations from a re-analysis of the deposited data

How the results depend on the processing

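The main counts of members called were 0 higher and 0 lower. They were 2 higher with library totals, 1 lower with DESeq2, and 3 higher and 3 lower with aal1-pOE replicate 2 and evc replicate 1 both left out. Leaving out each library in turn gave 0 to 0 called higher and 0 to 1 called lower, the 1 being kgd1 without aal1-pOE replicate 2. The median of the members ranged from -0.03 to 0.12 when each library was left out and was 0.70 with library totals. Their share of all counts differed by 0.0747 percentage points (aal1-pOE minus evc), by 0.0471 to 0.0925 when each library was left out and by 0.0802 of protein-coding counts. Counts over all genes were less stable, from 1 to 1085 called higher and from 81 to 1131 called lower over the alternatives, beside 79 and 270. DESeq2 called 395 and 511, the likelihood ratio test 397 and 472, limma-voom 19 and 235, and the fit with library totals 517 and 154.

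With the replicate block 0 members were called in either direction, the median was -0.00, and 247 and 383 of all genes were called higher and lower, the latter with the iron-sulfur assembly gene isd11 (adjusted p = 0.0461, edgeR). Same-numbered libraries correlated at 0.03, 0.02 and 0.00 in their deviations from the group means, and the other pairs at -0.02 to 0.01. The labels do not say whether same-numbered cultures were grown together. Correlations this small, from 3 libraries a strain, cannot decide it. SPAC16E8.17c in place of lsc1, an alternative chosen after seeing the data, left the median at 0.02 and 0 members called. With 3 libraries a strain, a fold change as small as most of those of the members could not be told from replicate spread.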
